A study of Mus musculus with 2 samples.

Results

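The miR-181 family was described across the adrenal gland libraries of a microRNA sequencing experiment. The family consists of 6 hairpins in 3 paralogous genomic pairs, Mir181a-1 with Mir181b-1, Mir181a-2 with Mir181b-2, and Mir181c with Mir181d. They were found by GENCODE M21 gene name among the 2202 microRNA genes of the deposited tables, and all 6 were present. Both libraries came from adrenal glands of male B6CASTF1/J mice aged 25 days, F1 animals of a cross between the C57BL/6J and CAST/EiJ strains. They form 1 group with 2 biological replicates, with no treatment, mutation or second group. The labels number the animals separately but enter the same donor for both, so the SDs given here may hold technical spread alone.

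MicroRNA hairpins are cut by Drosha and Dicer into a duplex, of which either the 5p arm or the 3p arm can be loaded into an Argonaute protein and guide it to messenger RNAs. The seed, bases 2 to 8 of the arm, dominates the choice of target. The miR-181 family is conserved among vertebrates and is best known from lymphocytes, where miR-181a sets the sensitivity of the T cell receptor in developing thymocytes. In endothelium miR-181b is known to restrain NF-kB signalling, and the family is also abundant in brain and retina.

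The family has 10 distinct mature arms, 4 from the 5p side and 6 from the 3p side, and all 6 hairpins were matched in the RefSeq set for GRCm38.p6. The 5p arms are shown because they carry 1 common seed, given in capitals, and because their differences decide which hairpin a read can be assigned to. Sequences run 5′ to 3′.
miR-181a-5p: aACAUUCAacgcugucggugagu
miR-181b-5p: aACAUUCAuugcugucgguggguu
miR-181c-5p: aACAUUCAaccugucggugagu
miR-181d-5p: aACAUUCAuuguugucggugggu
No mature arm of the RefSeq set outside the family has this seed. With positions counted from 1 at the 5′ end of the arm, miR-181b-5p and miR-181d-5p differ by C12U over the 23 bases they have in common, and miR-181d-5p is 1 base shorter. From miR-181a-5p to miR-181b-5p the substitutions are A9U, C10U and A21G. Deleting G11 from miR-181a-5p gives miR-181c-5p exactly.

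The 3p arms of the duplicated hairpins are shown because they differ between the copies, whereas the 5p arms do not. Capitals again mark the seed.
miR-181a-1-3p: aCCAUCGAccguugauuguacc
miR-181a-2-3p: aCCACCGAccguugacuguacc
miR-181b-1-3p: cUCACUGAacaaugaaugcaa
miR-181b-2-3p: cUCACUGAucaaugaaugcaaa
From the first to the second copy, the 3p arms of miR-181a differ by U5C and U16C, the first of which lies in the seed. Those of miR-181b differ by A9U over the 21 bases compared and share their seed, and miR-181b-2-3p is 1 base longer. The 6 arms of the 3p side have 4 different seeds, and miR-181a-1-3p shares its seed with miR-181c-3p.

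In both deposited tables reads mapped to several places were kept in a summary line and were not counted for any hairpin. They made up 27.0% of input reads in replicate 2 and 31.6% in replicate 1. How many of them came from miR-181 was not analysed here. The arm miR-181a-5p is contained whole in Mir181a-1 and in Mir181a-2, and miR-181b-5p in Mir181b-1 and in Mir181b-2, so reads of these arms as annotated could not be assigned to 1 copy. The 3p arms of all 6 hairpins, and the 5p arms of Mir181c and Mir181d, are each found in 1 annotated hairpin. Matches elsewhere in the genome were not analysed here.

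The shared run differs between the pairs of copies. A miR-181b-5p read extended by 1 base at its 3′ end would be unique to a copy, whereas a miR-181a-5p read would need 5 further bases. The extended stretches are shown with the first base that differs in capitals.
Mir181b-1: aacauucauugcugucgguggguuG
Mir181b-2: aacauucauugcugucgguggguuU
Mir181a-1: aacauucaacgcugucggugaguuuggA
Mir181a-2: aacauucaacgcugucggugaguuuggG
These stretches lie at chr1:137966650-137966674, chr2:38853845-38853869, chr1:137966468-137966495 and chr2:38852741-38852768 of GRCm38.p6, all on the plus strand. Extended at the 5′ end, a miR-181b-5p read becomes unique with 3 further bases and a miR-181a-5p read with 2. With a shared run of 20 bases as the limit, 4 of the 6 hairpins shared bases with another annotated hairpin, in each case with their own copy only. Among the 352 hairpins with at least 10 counts in both libraries, called detected here, 89 (25.3%) shared such a run.

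**Figure D1:**
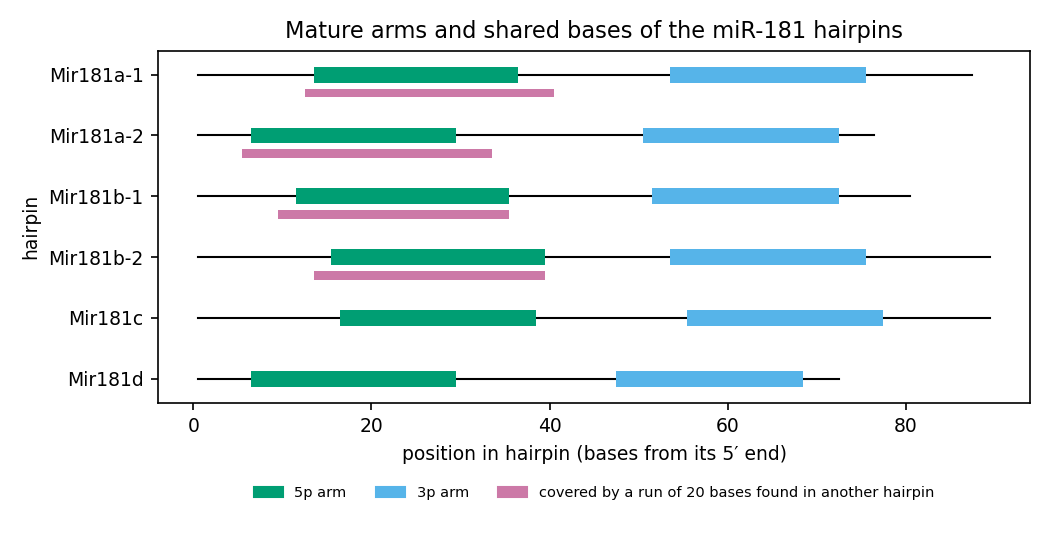
Mature arms of the 6 hairpins (green, 5p; blue, 3p) by position in the hairpin in bases, with bases covered by a run of 20 found in another annotated hairpin (pink bars under the line). The pink bars cover the whole 5p arm of Mir181a-1, Mir181a-2, Mir181b-1 and Mir181b-2 and no 3p arm, and Mir181c and Mir181d have none.

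The genomic settings of the pairs differ. Coordinates are mm10 with GENCODE M21. Mir181a-1 (ENSMUSG00000065565.1, chr1:137966455-137966541) and Mir181b-1 (ENSMUSG00000065458.1, chr1:137966639-137966718) lie 97 bases apart on the plus strand in an intron of the noncoding Gm4258. The exon of the lincRNA A430106G13Rik on the same strand covers all 80 bases of Mir181b-1 and 11 bases of Mir181a-1. Mir181a-2 (ENSMUSG00000065423.1, chr2:38852735-38852810) and Mir181b-2 (ENSMUSG00000065578.1, chr2:38853830-38853918) lie 1019 bases apart on the plus strand. Neither overlaps a gene on its own strand, and both face an intron of Nr6a1, an orphan nuclear receptor gene, on the opposite strand. All 89 bases of Mir181b-2 also face an exon of the annotated gene Gm44144 on that strand. Mir181c (ENSMUSG00000065483.2, chr8:84178873-84178961) and Mir181d (ENSMUSG00000076338.1, chr8:84178716-84178787) lie 85 bases apart on the minus strand. Both are in an intron of Nanos3, a gene of germ cell development. Only this pair has other counted hairpins within 50000 bases, the nearest 21838 bases away, and these include Mir23a, Mir27a and Mir24-2.

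Total sense counts were 4541373 in replicate 2 and 3588361 in replicate 1. Levels are given as counts per 1000000 sense counts (CPM), and a count of 0 allowed up to 0.661 CPM in replicate 2 and 0.836 CPM in replicate 1. Intervals are exact 95% binomial intervals and, like these limits, leave out all error but that of counting, as the reads carry no molecular identifiers and several may stem from 1 molecule. The libraries stand apart in hairpins known from other organs, and where these reads came from was not tested. Mir122, the main microRNA of hepatocytes, held 19.8% of counts in replicate 2 and 0.0892% in replicate 1. Levels of the miR-181 hairpins in replicate 2 are therefore given also with Mir122 out of the total. Skeletal muscle hairpins, 0 of 6 detected in both libraries, summed to 0.661 CPM in replicate 2 and 993 CPM in replicate 1. Nearly all of this was Mir206, at 0.661 CPM in replicate 2 and 987 CPM in replicate 1. Mir1a-2 followed with 3.62 CPM in replicate 1 and 0 in replicate 2, and Mir133a-2 and Mir133b had 0 counts in both. No hairpin specific to the adrenal gland was on the marker lists, so the tissue label could not be checked that way. Mir375, known from endocrine cells, was present at 29004 CPM in replicate 2 and 33380 CPM in replicate 1. In bulk tissue, fewer cells of a type and less RNA per cell cannot be told apart.

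The counted reads of the family came mainly from Mir181d, Mir181c and Mir181b-2, and all 6 hairpins were detected. Together the hairpins held 0.255% of sense counts in replicate 2 (0.250 to 0.259) and 0.303% in replicate 1 (0.297 to 0.308), a mean of 0.279% ± 0.0340 (SD, n = 2). With Mir122 out of the totals these shares were 0.317% in replicate 2 and 0.303% in replicate 1. The pair Mir181c and Mir181d supplied 82.0% of the family's counts in replicate 2 and 78.8% in replicate 1. Mir181a-2 and Mir181b-2 supplied 14.9% in replicate 2 and 18.4% in replicate 1. Mir181a-1 and Mir181b-1 supplied 3.16% in replicate 2 and 2.80% in replicate 1. These shares exclude the annotated 5p reads of miR-181a and miR-181b and are therefore shares of assignable reads, not of miR-181 molecules.

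Mir181d was the highest member, with 5021 counts or 1106 CPM in replicate 2 (1075 to 1137) and 5672 counts or 1581 CPM in replicate 1 (1540 to 1622). Its mean was 1343 CPM ± 336 (SD, n = 2), at position 63 of the 352 detected hairpins. Mir181c followed, with 4457 counts or 981 CPM in replicate 2 (953 to 1011) and 2886 counts or 804 CPM in replicate 1 (775 to 834). Its mean was 893 CPM ± 125 (SD, n = 2), at position 76. Both hairpins lay above the upper quartile of the detected hairpins, 767 CPM, as means of the libraries. With Mir122 out of the total, replicate 2 had 1378 CPM of Mir181d and 1223 CPM of Mir181c. Their ranges over the libraries did not overlap under either total, with Mir181d the higher. As their sequences are each found in 1 annotated hairpin, both arms could be counted, and a gene-level count does not say which arm was read.

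Mir181b-2 had 1698 counts or 374 CPM in replicate 2 (356 to 392) and 1986 counts or 553 CPM in replicate 1 (529 to 578). Its mean was 464 CPM ± 127 (SD, n = 2), at position 106 and above the median of the detected hairpins, 111 CPM. Mir181a-1 had 341 counts or 75.1 CPM in replicate 2 (67.3 to 83.5) and 282 counts or 78.6 CPM in replicate 1 (69.7 to 88.3). With 76.8 CPM ± 2.47 (SD, n = 2) it lay under that median, at position 192. With Mir122 out of the total, replicate 2 had 466 CPM of Mir181b-2 and 93.6 CPM of Mir181a-1. The order of these 4 hairpins, Mir181d, Mir181c, Mir181b-2 and Mir181a-1, was the same in both libraries.

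Mir181b-1 and Mir181a-2 were counted close to the detection limit. Mir181b-1 had 24 counts or 5.28 CPM in replicate 2 (3.39 to 7.86) and 22 counts or 6.13 CPM in replicate 1 (3.84 to 9.28). Mir181a-2 had 22 counts or 4.84 CPM in replicate 2 (3.04 to 7.33) and 14 counts or 3.90 CPM in replicate 1 (2.13 to 6.55). With Mir122 out of the total, replicate 2 had 6.59 CPM of Mir181b-1 and 6.04 CPM of Mir181a-2. A difference between them was not detectable at this depth. Both were above the level that a count of 0 allows in each library. A read is a whole mature strand whatever the length of its hairpin, and the hairpins run from 72 to 89 bases. Per 100 bases of hairpin the order of the mean levels was the same, from 1865 CPM for Mir181d to 5.75 CPM for Mir181a-2.

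**Figure D2:**
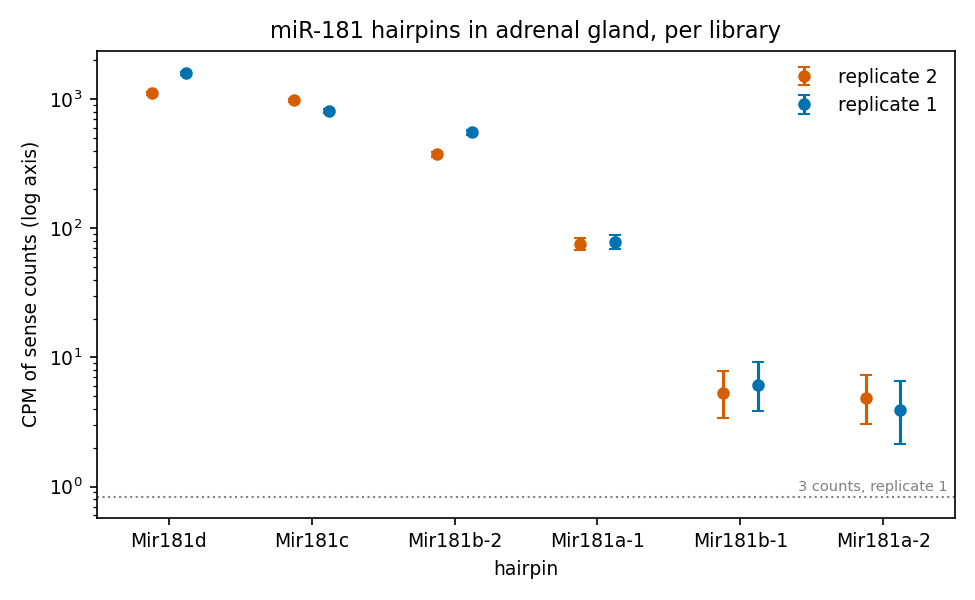
CPM of sense counts (log axis) of each hairpin in replicate 2 (orange) and replicate 1 (blue), with exact 95% intervals as bars and a dotted line at 3 counts in replicate 1. Levels run from 1106 CPM for Mir181d to 4.84 CPM for Mir181a-2 in replicate 2 and from 1581 CPM to 3.90 CPM in replicate 1, with the same order in both libraries.

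**Figure D3:**
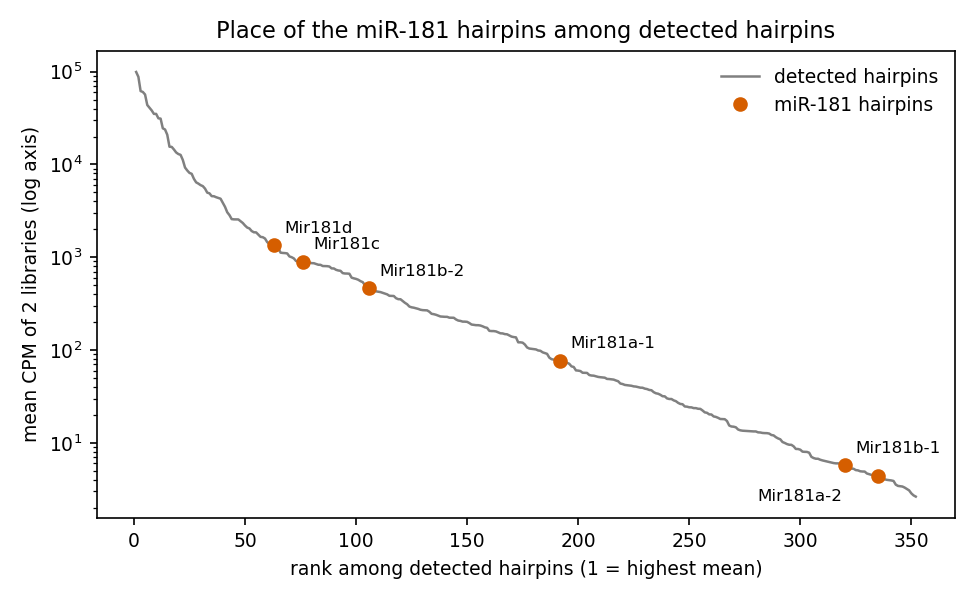
Mean CPM over the 2 libraries (log axis) against rank for the 352 detected hairpins (grey line), with the 6 miR-181 hairpins as points. Mir181d, Mir181c and Mir181b-2 lie above the median of 111 CPM, and Mir181a-1, Mir181b-1 and Mir181a-2 below it.

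No antisense read was counted at any of the 6 hairpins in either library, and none has an annotated hairpin on the opposite strand. Sense and either-strand counts were the same for each. The hairpins nearest in level over both libraries were sought as those with the smallest Euclidean distance in log2 CPM. For Mir181d these were Mir146 at a distance of 0.08 and Mir431 at 0.34. For Mir181c they were Mir15b at 0.11 and Mir409 at 0.17, and for Mir181b-2 they were Mirlet7c-1 at 0.26 and Mir376c at 0.30. Mir181a-1 was nearest to Mir32 at 0.11 and Mir3068 at 0.29. Mir181b-1 was nearest to Mir1930 and Mir7219, and Mir181a-2 to Mir141 and Mir8111. With 2 libraries this likeness says that levels were close, and no more.

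Copies of the same 5p arm had very unequal unique counts. Mir181b-2 had 70.8 times the counts of Mir181b-1 in replicate 2 (47.4 to 111) and 90.3 times in replicate 1 (59.5 to 144). Mir181a-1 had 15.5 times the counts of Mir181a-2 in replicate 2 (10.1 to 25.1) and 20.1 times in replicate 1 (11.8 to 37.3). The copy with more unique counts thus lay in the chromosome 2 pair for miR-181b and in the chromosome 1 pair for miR-181a, in both libraries. The ratio in replicate 2 was 0.784 of that in replicate 1 for the miR-181b copies (0.417 to 1.47) and 0.770 for the miR-181a copies (0.357 to 1.61), and both intervals include 1.

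Against other duplicated hairpins with both copies detected, the miR-181b copies were far apart. Among detected hairpins, 23 pairs hold the same mature arm in RefSeq, and the median gap between copies was 4.23-fold in mean CPM. Pairs with a copy under the detection minimum were left out. Their gaps can be wider, so the ranking holds only among pairs with both copies detected. The gap of the miR-181b copies was 81.2-fold, and none of the other detected pairs had a wider one. The gap of the miR-181a copies was 17.6-fold, and 3 of the other detected pairs had a wider one. These pairs differ in how many bases can tell the copies apart. The part of that in the gaps was not tested.

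Neighbours within a genomic pair were also unequal in unique counts. Mir181b-2 had 77.2 times the counts of Mir181a-2 in replicate 2 (50.8 to 123) and 142 times in replicate 1 (84.3 to 260). Mir181a-1 had 14.2 times the counts of Mir181b-1 in replicate 2 (9.39 to 22.5) and 12.8 times in replicate 1 (8.30 to 20.8). Mir181d had 1.13 times the counts of Mir181c in replicate 2 (1.08 to 1.17) and 1.97 times in replicate 1 (1.88 to 2.06). As context, 113 pairs of detected hairpins adjacent on a strand lie under 10000 bases apart, and their median gap in mean CPM was 4.40-fold. Of these pairs, 4 had a wider gap than Mir181a-2 and Mir181b-2, and 32 a wider one than Mir181a-1 and Mir181b-1. A gap wider than that of Mir181c and Mir181d was found in 86. The hairpins differ in the sequence that can be counted. Both arms of Mir181c and Mir181d could be counted, whereas the arms shared by the miR-181a and miR-181b copies, as annotated, could not. The further bases that make a read of a shared arm unique also differ between miR-181a and miR-181b. The part of these differences in the gaps and in the ranking was not tested.

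**Figure D4:**
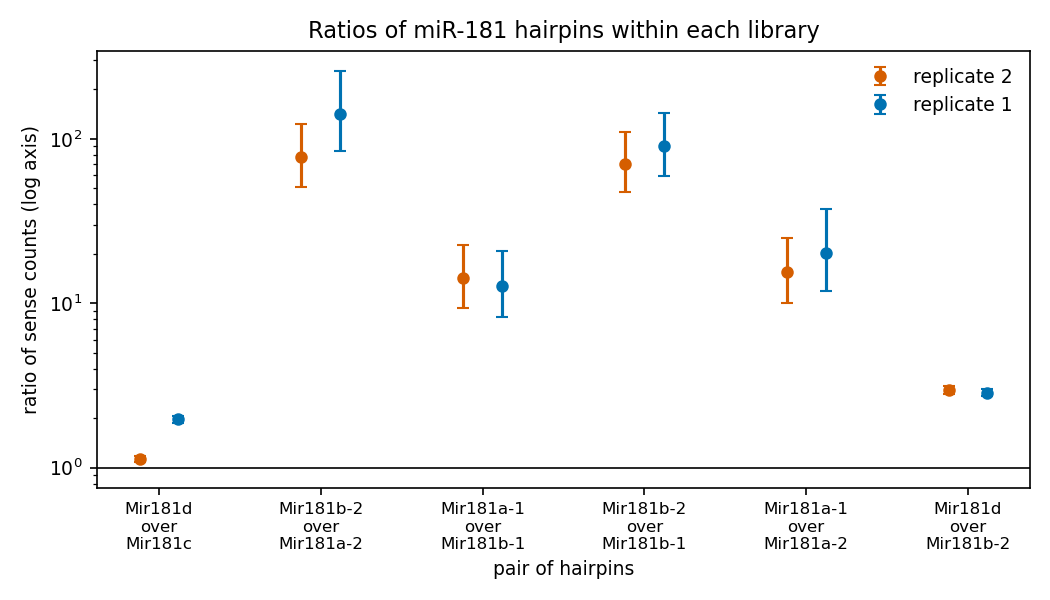
Ratio of sense counts between hairpins within replicate 2 (orange) and replicate 1 (blue) on a log axis, with exact 95% intervals as bars and a line at 1. The ratio of Mir181d to Mir181c is 1.13 in replicate 2 and 1.97 in replicate 1 with separate intervals, whereas the intervals of the other 5 ratios overlap between the libraries. Of these 5, all but Mir181d to Mir181b-2 have Mir181b-1 or Mir181a-2, with few counts, as denominator. Other ratios that differed between the libraries, such as Mir181c to Mir181b-2, are not plotted.

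The libraries differed at Mir181d, Mir181b-2 and Mir181c, and not all in the same direction. For each hairpin, the split of its reads between the libraries was set against that of the totals in an exact binomial test, two-sided, with p-values adjusted by Benjamini-Hochberg over the 352 detected hairpins and a threshold of 0.05. Such a test is about these libraries, not about conditions. The test called 3 of the 6 hairpins, against 67.0% of all detected hairpins. Of the 6, 1 was called higher in replicate 2, against 30.4% of detected hairpins, and 2 were called lower there, against 36.6%. Which share of calls is the larger depends on the count minimum, and Mir181b-1 and Mir181a-2 had only 14 to 24 counts. No conclusion about the family is drawn from these shares.

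Mir181d in replicate 2 was at 0.699 of its replicate 1 level (0.673 to 0.727, adjusted p = 2.26e-75, exact binomial test). Mir181b-2 was at 0.676 (0.633 to 0.721, adjusted p = 5.88e-32, exact binomial test). Mir181c was at 1.22 of its replicate 1 level (1.16 to 1.28, adjusted p = 1.64e-16, exact binomial test). Mir181a-1 stood at 0.955 (0.814 to 1.12), Mir181b-1 at 0.862 (0.463 to 1.61) and Mir181a-2 at 1.24 (0.607 to 2.62), none of them called. All 6 hairpins were within 2-fold between the libraries, as were 82.4% of the detected hairpins.

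With Mir122 out of the totals and out of the test, 4 of the 6 hairpins were called, against 71.2% of 351. Mir181c, at 1.52 (1.45 to 1.59), and Mir181a-1, at 1.19 (1.01 to 1.40), were called higher in replicate 2, against 49.9% of the hairpins tested. Mir181d, at 0.871 (0.838 to 0.905), and Mir181b-2, at 0.841 (0.788 to 0.898), were called lower, against 21.4%. The direction of Mir181d, Mir181b-2 and Mir181c was the same under either total, while Mir181a-1 was below 1 under the total of all sense counts and above 1 without Mir122.

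**Figure D5:**
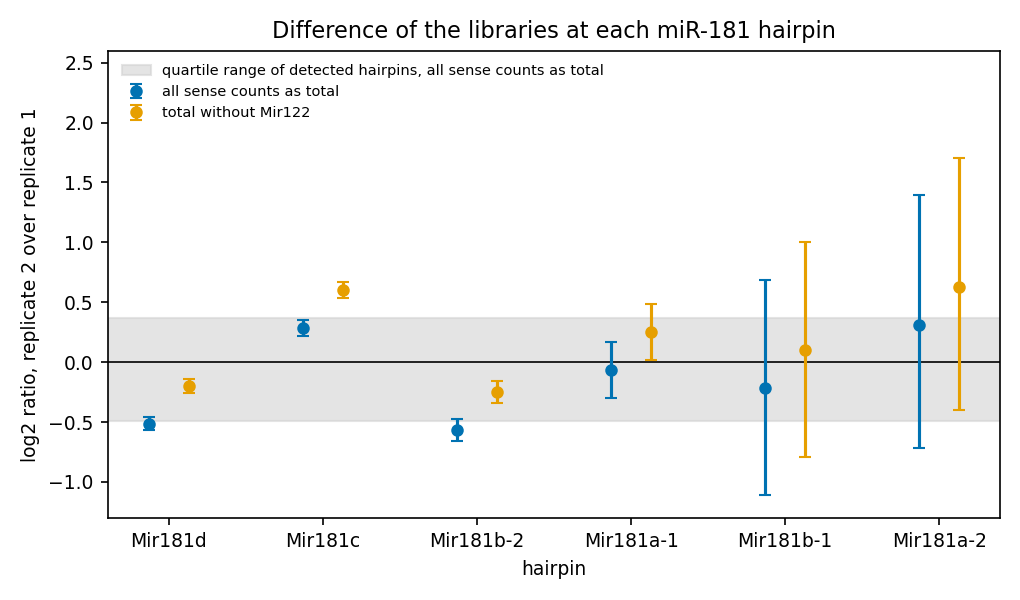
Log2 ratio of replicate 2 over replicate 1 for each hairpin, with all sense counts as total (blue) or Mir122 out of it (orange). Bars are exact 95% intervals. The grey band is the range between the quartiles of the detected hairpins with all sense counts as total. It does not apply to the orange points, for which the median log2 ratio of the hairpins tested was 0.28. Mir181d and Mir181b-2 lie below 0 and Mir181c above 0 under both totals.

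Mir181c and Mir181d, 85 bases apart, also diverged in a measure that needs no total, their ratio within each library. It shows that they diverged and not which of them was higher or lower, which depends on the total. The ratio of Mir181d to Mir181c in replicate 2 was 0.573 of that in replicate 1 (0.539 to 0.609). By contrast, the ratio of Mir181d to Mir181b-2, on another chromosome, was 2.96 in replicate 2 and 2.86 in replicate 1, a quotient of 1.04 (0.960 to 1.12). Of the 15 ratios between family members, 5 differed between the libraries beyond their interval, of which 3 involved Mir181c, 3 Mir181a-1, 2 Mir181d and 2 Mir181b-2. None of the 5 involved Mir181b-1 or Mir181a-2, whose 14 to 24 counts leave wide intervals. Among Mir181d, Mir181c, Mir181b-2 and Mir181a-1, only the ratio of Mir181d to Mir181b-2 did not differ beyond its interval. For the 113 adjacent pairs, the median shift of the ratio between the libraries was 1.51-fold and the upper quartile 2.07-fold. Mir181c and Mir181d shifted by 1.74-fold, and 42 of these pairs shifted further.

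Marker hairpins of cells known for miR-181 were measured beside the family. The leukocyte list, with 6 of 8 hairpins detected and Mir142b at 0 counts in both libraries, summed to 2833 CPM in replicate 2 and 5013 CPM in replicate 1. All 6 detected members were lower in replicate 2, where Mir181d and Mir181b-2 were called lower and Mir181c higher. The leading leukocyte hairpin, Mir146, stood at 1143 CPM in replicate 2, against 1654 CPM in replicate 1. The endothelial list, with 4 of 5 detected and none at 0 counts in both, summed to 68381 CPM in replicate 2 and 68037 CPM in replicate 1, with 3 members higher and 1 lower in replicate 2. The neuron and chromaffin list, with 12 of 18 detected and the 3 Mir124a hairpins, Mir9-1 and Mir9-2 at 0 counts in both, summed to 34029 CPM in replicate 2 and 40347 CPM in replicate 1, with 4 members higher and 8 lower in replicate 2. The hepatocyte list, with 3 of 4 detected and none at 0 counts in both, summed to 198916 CPM in replicate 2 and 949 CPM in replicate 1, with all 3 higher in replicate 2. Mir375 alone gave 29004 CPM in replicate 2 and 33380 CPM in replicate 1 of the neuron and chromaffin sum. These sums and directions are with all sense counts as total. They can differ with Mir122 out of it, which was not analysed for the lists. The part of these cell types in the miR-181 levels was not tested.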

How the data were processed

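MicroRNA genes were measured by microRNA sequencing of total RNA from adrenal gland, in 2 libraries of 1 group. The authors deposited raw counts of reads per microRNA gene, not normalised, made from mm10 alignments with GENCODE M21, per the text files beside the tables. Neither aligner nor trimming is given in the sources used here. The 4 summary lines were kept out of totals and tests. The sense column was used, and its strand was read from the values.

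CPM, exact intervals, the exact binomial test over detected hairpins (at least 10 counts in both libraries) and ratios between hairpins were computed with Python 3.11.15, scipy 1.17.1, numpy 2.4.6 and pandas 2.3.3, and figures with matplotlib 3.10.9. The test was checked on simulated counts that held counting error alone. That check does not cover the wider spread between these libraries. The libraries differed by more than counting error, so each counted as 1 replicate. No test between groups was possible with 1 group. Shared runs were searched in the 2202 hairpins of the GENCODE M21 transcripts. Mature arms came from RefSeq. Alternatives were totals without Mir122 or of all input reads, edgeR 4.0.16 TMM factors, DESeq2 1.42.0 size factors (R 4.3.3), the either-strand column, other count minimums, pseudocounts and run lengths, and each library left out. Named hairpins were the 6 members, the 2 nearest detected hairpins in level of each, Mir122 and up to 2 leading members of each marker list. Mir23a, Mir27a and Mir24-2 were named by position. The members and lists were chosen with earlier results of these data known. The backgrounds of 23 duplicated and 113 adjacent pairs, and the change of ratios between the libraries, were added after the data were seen.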

Additional observations from a re-analysis of the deposited data

How the results depend on the processing

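The total of all input reads put the family at a mean of 0.119%, and the either-strand column, whose total leaves out reads at hairpins that face another, at 0.332%. Leaving out a library gave 0.255% to 0.303%. With Mir122 out of the totals 175 hairpins were called higher in replicate 2 and 75 lower, against 107 and 129 with it, and the median log2 ratio was 0.28, against -0.04. A minimum of 1 count gave 567 detected hairpins. Mir181a-1 reversed to a log2 ratio of 0.25 with Mir122 out of the totals and of 0.027 with all input reads, and Mir181b-1 reversed to 0.10 with Mir122 out, against -0.07 and -0.21. This follows from the totals. Mir181d, Mir181b-2 and Mir181c kept their direction and call under TMM factors, size factors, both other totals and the either-strand column, and 4 hairpins shared bases at runs of 18 and 22. A ratio between the libraries cannot be had with a library left out. Mir181b-1 and Mir181a-2 are limited by depth. No paired analysis was possible because there is 1 group.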
